A study of Mus musculus with 3 samples.

Results

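The ionotropic glutamate receptor and GABA-A receptor genes were described as open chromatin in nuclei of mouse brain tumour samples. The set held 26 of the 21887 protein-coding genes of the mouse, namely the AMPA receptor genes Gria1 to Gria4, the NMDA receptor genes Grin1, Grin2a, Grin2b, Grin2c, Grin2d, Grin3a and Grin3b, the kainate receptor genes Grik1 to Grik5, the delta receptor gene Grid1, and the GABA-A receptor genes Gabra2 to Gabra5, Gabrb1, Gabrb2, Gabrg1, Gabrg3 and Gabrd. Members were chosen by name, but with earlier results of these data known. The series is described as tumours made by piggyBac in utero electroporation, in which a transposon carrying the transgene is delivered to cells of the embryonic brain. There were 3 single-cell ATAC-seq libraries, 1 labelled as overexpression of PDGFB-WT, 1 as overexpression of PDGFB-NLS and 1 as Control, and all 3 carried the tissue label glioma. The Control library is also named normal in the deposited material, so whether its nuclei came from a tumour or from brain without one is not settled here, and every ratio to Control holds against a library of that uncertain origin. The labels give no age, strain, promoter, further allele or number of animals, and do not spell out NLS, so it is not known here what else the 3 groups share. With 1 library per group there was no test. Every interval below is a 95% interval on the fragments counted and covers counting error only, not the difference between animals.

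Ionotropic receptors are channels that open when a transmitter binds. AMPA receptors carry fast excitatory current, NMDA receptors pass calcium when glutamate binding and depolarisation coincide, kainate receptors tune transmission on both sides of a synapse, and GABA-A receptors are chloride channels built of several subunits. These genes are known best from neurons, but oligodendrocyte precursor cells (OPCs) receive synapses from neurons through AMPA and GABA-A receptors, astrocytes carry several of the same receptors, and glioma cells can receive glutamatergic input through AMPA receptors.

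A locus was taken as the gene body with 2 kb on either side. Its level was the sum of counts in peaks overlapping that span, in CPM, the counts scaled to a total of 1000000 in the regions called in all 3 libraries. The libraries differed in depth. Control had 2226 barcodes with a median of 13054 counts, PDGFB-WT had 7441 with a median of 821, and PDGFB-NLS had 10996 with a median of 2767.5. The number of barcodes shared was 23 between Control and PDGFB-WT, 45 between Control and PDGFB-NLS, and 118 between PDGFB-WT and PDGFB-NLS. Peaks were called in each library separately, and members had 173 distinct peaks over 155.4 kb in Control, 97 over 86.4 kb in PDGFB-WT and 232 over 205.3 kb in PDGFB-NLS. The mean level was 6.88 CPM per covered kb in Control, against 14.3 in PDGFB-WT and 7.09 in PDGFB-NLS. Since a region missing from a list has an unknown count, every sum was repeated over the regions called in all 3 libraries, where members had 68.2 kb and 11.4 CPM per kb in Control, 63.9 kb and 17.7 CPM per kb in PDGFB-WT, and 64.0 kb and 15.3 CPM per kb in PDGFB-NLS. Of the 26 members, 25 had a peak in Control, against 23 in PDGFB-WT and 26 in PDGFB-NLS.

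The start regions of 4 genes are shown first because each coincided with a peak called in all 3 libraries, and because the genes come from 3 receptor classes and differ in the libraries and clusters where that peak was open. The RefSeq promoter table, on GRCm38.p6 (the patched mm10 build), held 18 of the 26 members. Each line gives the 250 bases before the listed start, 5′ to 3′ on the minus strand. Capitals mark GGACAG or GGGCGG on either strand, so that CTGTCC is GGACAG read on the opposite strand. Grin1 lies at chr2:25319188-25319437, Gabrg1 at chr5:70842618-70842867, Gabra2 at chr5:71095850-71096099 and Gria4 at chr9:4796235-4796484, where an annotated long noncoding RNA overlaps it.
Grin1: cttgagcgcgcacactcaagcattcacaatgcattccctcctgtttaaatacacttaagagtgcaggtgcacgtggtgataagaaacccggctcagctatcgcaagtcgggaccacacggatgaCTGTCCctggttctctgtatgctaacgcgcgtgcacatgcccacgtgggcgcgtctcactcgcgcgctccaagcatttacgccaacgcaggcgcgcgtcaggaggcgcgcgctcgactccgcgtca
Gabrg1: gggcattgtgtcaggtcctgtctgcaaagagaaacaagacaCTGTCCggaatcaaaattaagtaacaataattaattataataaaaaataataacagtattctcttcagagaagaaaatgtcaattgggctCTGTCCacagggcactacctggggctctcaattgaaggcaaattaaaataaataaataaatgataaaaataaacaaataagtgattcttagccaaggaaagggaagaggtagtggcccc
Gabra2: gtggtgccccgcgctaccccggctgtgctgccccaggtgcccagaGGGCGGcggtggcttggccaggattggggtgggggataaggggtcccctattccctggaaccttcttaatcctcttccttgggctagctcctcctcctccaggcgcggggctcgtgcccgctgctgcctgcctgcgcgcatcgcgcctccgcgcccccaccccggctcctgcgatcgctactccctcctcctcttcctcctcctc
Gria4: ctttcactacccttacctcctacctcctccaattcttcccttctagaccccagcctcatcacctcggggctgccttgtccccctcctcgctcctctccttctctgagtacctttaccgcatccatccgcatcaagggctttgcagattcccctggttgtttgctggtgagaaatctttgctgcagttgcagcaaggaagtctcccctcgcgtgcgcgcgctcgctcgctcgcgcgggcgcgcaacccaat

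These windows differ in composition. The GC content was 58.8% at Grin1, 35.6% at Gabrg1, 70.0% at Gabra2 and 58.8% at Gria4. GGACAG, one part of the element bound by REST, a repressor of neuronal genes outside neurons, was present in 9 of the 22 listed member starts (40.9%) and in 18.7% of all 32851 starts in the table. The 8 genes concerned were Gabra5, Gabrb1, Gabrb2, Gabrg1, Gria2, Grin1, Grin2d and Grin3b. CAGCACC, the other part of that element, was in 0 member starts and in 5.73% of all starts. The GC box GGGCGG was in 36.4% of member starts and 32.7% of all, and TATAAA in 18.2% and 12.4%. TGACGTCA, CAGCTG and TGACTCA were in 0 member starts and in 1.55%, 13.0% and 4.46% of all starts. All motifs were searched on both strands, and a match describes letters only, not a bound site.

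The peak over the Gria4 start, at chr9:4795437-4796461, was at 3.53 CPM in Control, against 13.6 in PDGFB-WT and 10.1 in PDGFB-NLS. Gria4 encodes an AMPA receptor subunit. Its start was lowest in Control and higher in both PDGFB libraries, with log2 ratios of 1.99 and 1.51 relative to the median of all regions compared. The peak over the Gabrg1 start, at chr5:70841865-70843758, was at 10.9, 25.3 and 21.9 CPM in Control, PDGFB-WT and PDGFB-NLS, with log2 ratios of 1.27 and 1.01. Gabrg1 encodes a gamma subunit found in glia as well as neurons. The Gabra2 start, at chr5:71095587-71096677, stood at 8.84, 20.9 and 12.7 CPM, with ratios of 1.29 and 0.52. Gabra2 encodes an alpha subunit, the subunit type that helps form the GABA and benzodiazepine sites, and its start was highest in PDGFB-WT. The Grin1 start, at chr2:25318599-25319559, was at 8.73, 11.1 and 20.4 CPM, with ratios of 0.39 and 1.22. Grin1 encodes the subunit that every NMDA receptor requires. At the other end of the same gene, at chr2:25291811-25293432, Control was highest instead, at 16.7 CPM against 10.4 in PDGFB-WT and 13.3 in PDGFB-NLS. That region also lies at the end of another gene. PDGFB-NLS stood above PDGFB-WT at both ends.

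For the whole locus, log2 ratios were taken relative to the median of all genes compared, and a gene was compared when it had at least 100 counts in both libraries. Before it was taken off, that median was -0.20 with PDGFB-WT set against Control. It was 0.02 when PDGFB-NLS was set against Control, and 0.22 when PDGFB-NLS was set against PDGFB-WT. A gene at least 1.5-fold from the median was counted as higher or lower. In PDGFB-WT against Control, 17 members could be compared. Of these, 13 stood above the median, 11 were higher and 0 lower, with a median log2 ratio of 0.99. Over all 13303 genes compared, 7.92% were higher and 6.79% were lower. In PDGFB-NLS against Control, 24 could be compared, 21 stood above the median, 12 were higher and 0 lower, with a median of 0.56, where 7.96% of 15647 genes were higher and 1.55% lower. The 2 comparisons share the Control library and are not independent.

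Control has 1 library, so a Control that stands apart would move both. PDGFB-WT is shallow, so a member reaches 100 counts there only when its level is high, and the 17 members compared are in part chosen for that. When the members were taken by the count that their Control level would give in both libraries, 15 qualified and 7 of them were higher, where 5.91% of 13655 genes were. Of the 15, Grin2c and Gabrd had no peak in PDGFB-WT and thus no known value there. With these 2 ranked lowest, the median was 0.40. In PDGFB-NLS against PDGFB-WT, 17 members were compared, 7 stood above the median, 1 was higher and 4 lower, with a median of -0.10, against 6.26% of 13314 genes higher and 3.64% lower.

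Over regions called in all 3 libraries, the count of higher members was about as large in PDGFB-WT and smaller in PDGFB-NLS. In PDGFB-WT, 15 of 17 members stood above the median and 12 were higher, with 0 lower and a median of 1.07, where 9.76% of 13181 genes were higher and 1.85% lower. In PDGFB-NLS, 18 of 19 stood above the median and 5 were higher, with 0 lower and a median of 0.52, where 4.68% of 14582 genes were higher and 0.741% lower. The 5 were Gria4, Grin3b, Grik1, Gabra5 and Gabrg1. Of the 12 members higher over all peaks of PDGFB-NLS, Gria4, Gabra5 and Gabrg1 remained, Gria1 and Gabrb2 could not be compared, and 7 came under 1.5-fold, namely Gria2 (0.57), Grin2b (0.53), Grik3 (0.29), Grik4 (0.48), Grid1 (0.52), Gabra2 (0.53) and Gabrg3 (0.497). Between the 2 PDGFB libraries, 3 of 17 stood above the median, 0 were higher and 6 lower, with a median of -0.36, where 1.35% of 13191 genes were higher and 4.53% lower. Because each value sums over all nuclei of a library, fewer nuclei of a type and less accessibility per nucleus cannot be told apart in it.

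**Figure D1:**
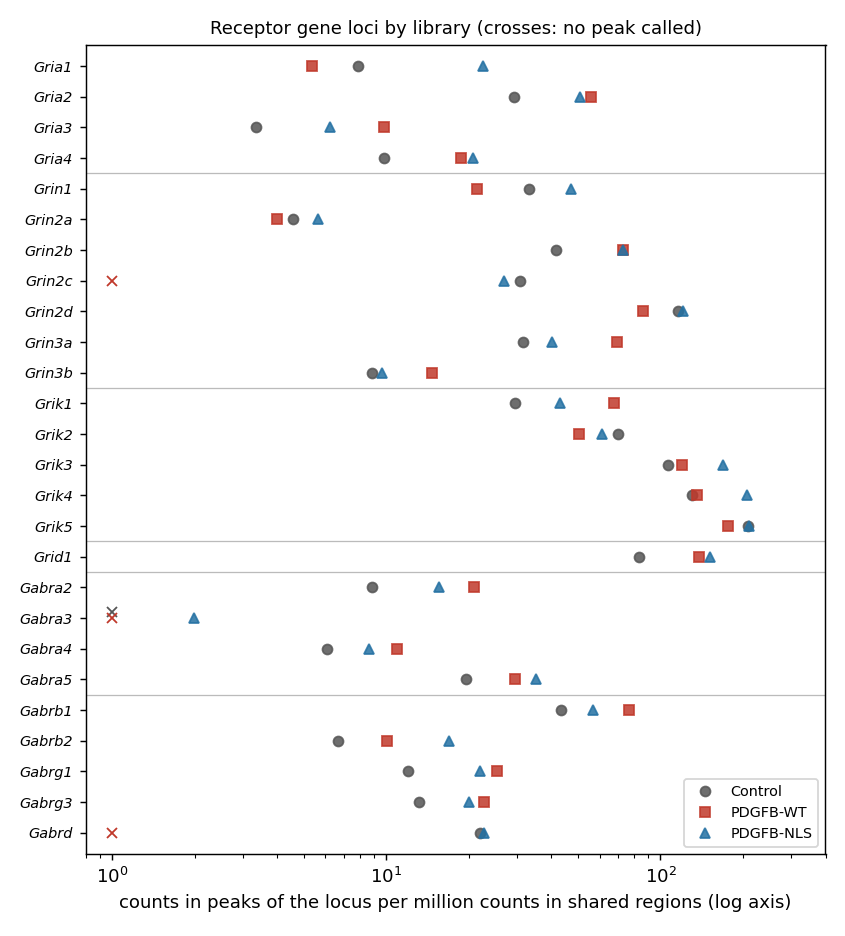
Level of each receptor gene locus in each of the 3 libraries (CPM, scaled to the regions called in all 3 libraries, log axis). Grik5 was at 207.9 CPM in Control, against 175.8 in PDGFB-WT and 209.7 in PDGFB-NLS, whereas Gria2 was at 29.2, 55.7 and 50.8.

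**Figure D2:**
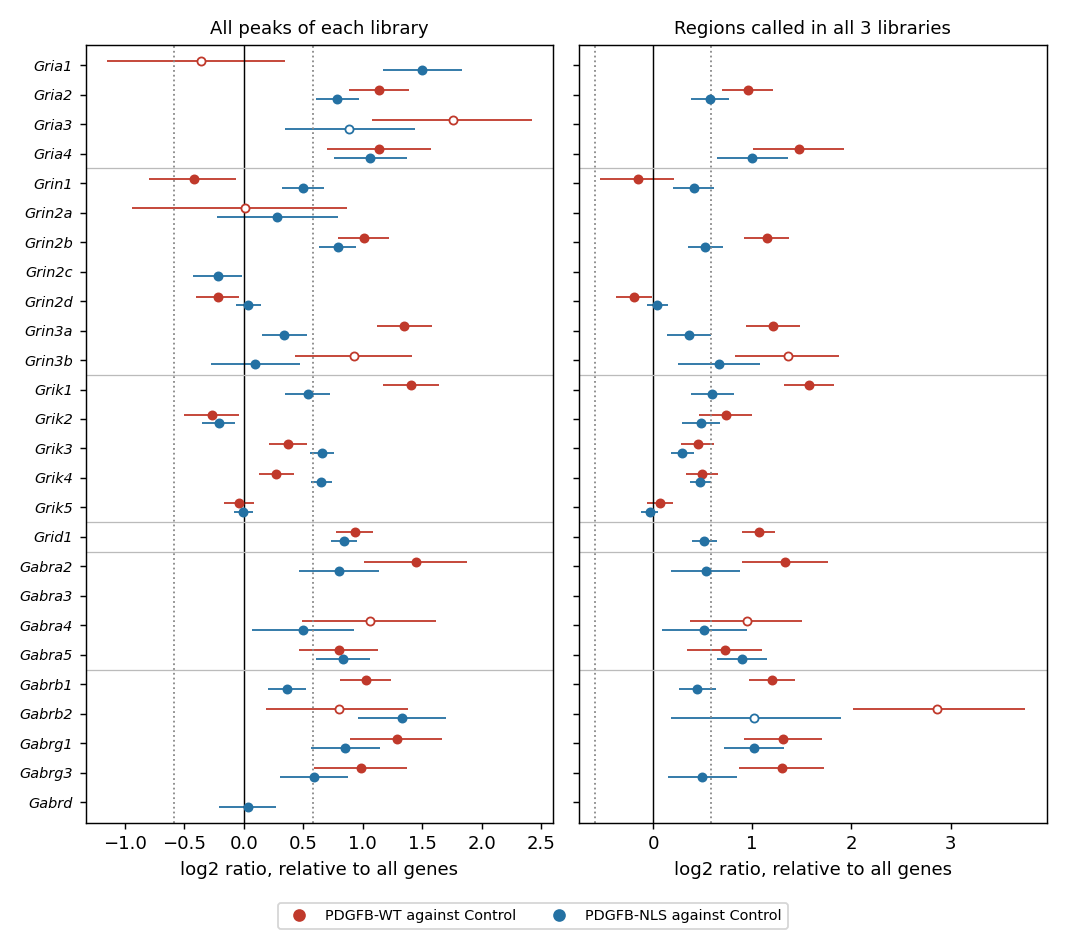
Log2 ratio of each locus against Control, relative to the median of all genes compared, from all peaks of each library (left) and from regions called in all 3 libraries (right). Bars are 95% intervals for counting error, open symbols have fewer than 100 counts in a library, and dotted lines mark 1.5-fold. Grik5 and Grin2d lie near 0, while the filled AMPA and GABA-A points lie to the right of 0, with Gabrd at 0.03.

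Among the AMPA receptor genes, 2 could be compared in PDGFB-WT and 3 in PDGFB-NLS, and these were higher than in Control. At its Control level Gria4 would have had 66 counts in PDGFB-WT, under the minimum, so the count in PDGFB-WT is in part set by the minimum. Gria2, whose edited subunit keeps AMPA receptors poorly permeable to calcium, was at 29.2 CPM in Control, against 55.7 in PDGFB-WT and 50.8 in PDGFB-NLS. Control was the lowest library, and the log2 ratios were 1.14 (interval 0.88 to 1.39) and 0.79 (0.60 to 0.97). Gria4 was at 9.77, 18.7 and 20.6 CPM, with ratios of 1.14 (0.70 to 1.57) and 1.06 (0.76 to 1.37). Its 2 PDGFB libraries differed by a ratio of -0.08, small beside either interval. Gria1, the subunit most tied to activity-dependent receptor insertion, was at 7.91, 5.33 and 22.6 CPM, and only PDGFB-NLS stood out, at 1.497 (1.17 to 1.83). The Gria1 value of PDGFB-WT rests on 36 counts in 1 peak and PDGFB-NLS had 10 peaks against 3 in Control, none of which was called in all 3 libraries. Gria3 was at 3.34, 9.78 and 6.23 CPM, with 86 counts in Control and 66 in PDGFB-WT, and was not compared.

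Among the NMDA receptor genes the subunits divided. In PDGFB-WT 4 could be compared, of which 2 were higher, with a median of 0.39, and in PDGFB-NLS 7 could be compared, of which 1 was higher, with a median of 0.28. Grin2b, the juvenile glutamate-binding subunit, was at 41.7 CPM in Control and 72.8 in both PDGFB libraries, with ratios of 1.01 and 0.79. That level came from 7 peaks in PDGFB-WT and 16 in PDGFB-NLS. In regions called in all 3 libraries Grin2b was at 35.0, 72.8 and 50.4 CPM, so that PDGFB-NLS came below PDGFB-WT. Grin3a, a glycine-binding subunit that lowers calcium entry, was at 31.4, 69.5 and 40.2 CPM. It was high in PDGFB-WT at 1.35 (1.12 to 1.58), near Control in PDGFB-NLS at 0.34, and lower in PDGFB-NLS than in PDGFB-WT at -1.01 (-1.24 to -0.79). Grin1 was at 33.2, 21.5 and 47.3 CPM. It lay below the median in PDGFB-WT at -0.42 (-0.80 to -0.06) and above it in PDGFB-NLS at 0.49 (0.32 to 0.67). Over regions called in all 3 libraries the Grin1 interval for PDGFB-WT held 0, at -0.15 (-0.53 to 0.22). PDGFB-NLS exceeded PDGFB-WT by 0.91 (0.56 to 1.28), and Grin1 was the member counted as higher in that comparison. The Grin1 region at chr2:25291811-25293432 is also at the end of another gene. Without it Grin1 was at 16.5, 11.1 and 34.0 CPM. Control also had 1 inner Grin1 peak, of 200 counts, where PDGFB-WT had none.

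The other NMDA receptor genes were Grin2d, Grin2c, Grin2a and Grin3b. Grin2d, a subunit with slow channel closing, was at 116.0, 86.4 and 120.5 CPM over all peaks, with ratios of -0.22 and 0.04. Much of that count lies in peaks that are also at ends of other genes. Without them Grin2d was at 55.8, 30.8 and 53.8 CPM, from 5, 2 and 5 peaks, and thus lowest in PDGFB-WT. Grin2c, best known from the cerebellum, was at 30.8 CPM in Control and 26.8 in PDGFB-NLS, with no peak in PDGFB-WT, so no value can be given there. Grin2a, the adult counterpart of Grin2b, was at 4.58, 4.001 and 5.62 CPM and Grin3b at 8.88, 14.7 and 9.61 CPM. Both had fewer than 100 counts in PDGFB-WT, and in PDGFB-NLS the ratio of Grin3b was 0.10 over all peaks. Control had 1 Grin3b peak inside the gene, of 72 counts, where the PDGFB libraries had none. In regions called in all 3 libraries Grin3b was at 6.09, 14.7 and 9.61 CPM, and was higher in PDGFB-NLS.

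The kainate receptor genes were among the highest members. All 5 could be compared. In PDGFB-WT 3 stood above the median and 1 was higher, with a median of 0.27. In PDGFB-NLS 3 stood above and 2, Grik3 and Grik4, were higher over all peaks, with a median of 0.54. Grik1 was at 29.4, 67.7 and 43.1 CPM, with ratios of 1.41 (1.17 to 1.64) in PDGFB-WT and 0.54 in PDGFB-NLS. PDGFB-NLS was lower than PDGFB-WT at -0.88 (-1.10 to -0.65). Over each library's own peaks, Grik3 and Grik4 had their highest level in PDGFB-NLS, which had 25 Grik3 peaks against 14 in Control and 7 in PDGFB-WT. Grik3 was at 106.5, 119.4 and 169.8 CPM, with ratios of 0.37 and 0.66, and Grik4, which forms channels only with Grik1 to Grik3 subunits, at 130.1, 136.5 and 206.7, with 0.27 and 0.65. In regions called in all 3 libraries Grik3 was at 84.8, 108.6 and 103.8 CPM and Grik4 at 91.5, 121.1 and 127.2, so that the 2 PDGFB libraries lay close and neither gene was 1.5-fold from Control.

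Grik5, the partner subunit of the same kind as Grik4, was level across the libraries over all peaks, at 207.9, 175.8 and 209.7 CPM, with ratios of -0.04 and -0.00. Most of its count came from 1 region beyond the gene, chr7:25076651-25077789, which also lies at the end of another gene and was at 151 CPM in Control, against 144 in PDGFB-WT and 144 in PDGFB-NLS. Without peaks at ends of other genes Grik5 was at 56.8, 31.4 and 65.9 CPM, from 8, 2 and 9 peaks, and was not level. Grik2 changed sign with the regions summed. With all peaks it was at 70.1, 50.5 and 61.3 CPM, with ratios of -0.27 and -0.21. In regions called in all 3 libraries the ratios were 0.73 and 0.48. Control had 17 Grik2 peaks over 15.2 kb, against 7 over 6.03 kb in PDGFB-WT and 13 over 11.5 kb in PDGFB-NLS.

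Grid1, the delta receptor gene, encodes a synaptic organiser that binds cerebellins. It was at 83.6, 138.4 and 151.3 CPM and was higher in both PDGFB libraries, at 0.93 and 0.84. In regions called in all 3 libraries it was at 65.4, 128.6 and 93.5 CPM, with ratios of 1.07 and 0.52, so that PDGFB-NLS came under 1.5-fold and below PDGFB-WT. PDGFB-NLS had 32 Grid1 peaks, Control 21 and PDGFB-WT 13. Its end and its inner peaks differed. The region at its end, at chr14:34818973-34821063, was highest in Control, at 19.1 CPM against 11.9 and 14.7. Of the 9 Grid1 regions inside the gene that were called in all 3 libraries, the one at chr14:35430006-35430954 was at 2.68 CPM in Control, against 11.7 in PDGFB-WT and 1.91 in PDGFB-NLS, and thus high in 1 library. The one at chr14:34968954-34969879 was at 6.13, 14.8 and 15.3 CPM, high in both PDGFB libraries.

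For the GABA-A receptor genes, 5 could be compared in PDGFB-WT and 8 in PDGFB-NLS. The 5 compared in PDGFB-WT were Gabra2, Gabra5, Gabrb1, Gabrg1 and Gabrg3. Each was higher, but at their Control levels Gabra2, Gabrg1 and Gabrg3 would have had 59.7, 80.9 and 89 counts there, under the minimum of 100, so that count follows in part from the minimum. In PDGFB-NLS 5 of 8 were higher, with a median of 0.69, and Gabra5 and Gabrg1 were so too over the regions that every library had called. Among the alpha subunits, Gabra2 was at 8.84, 20.9 and 15.5 CPM, with ratios of 1.44 (1.01 to 1.87) and 0.80. Gabra5, an alpha subunit of extrasynaptic receptors, was at 19.5, 29.5 and 35.1 CPM, with 0.80 and 0.83. Most of its count came from chr7:57590600-57591532, at 11.4, 18.7 and 22.9 CPM, which also lies at the end of another gene. Without that region Gabra5 was at 8.15, 10.8 and 12.2 CPM, and all other Gabra5 locus values given here include it. Both genes were lowest in Control. Gabra4 was at 6.05, 11.0 and 8.63 CPM, and its only peak is also the start of the divergent neighbour Gabrb1, so its counts cannot be assigned to 1 of the 2 genes. Gabra3 had 1 peak, of 49 counts, in PDGFB-NLS and none in the other libraries.

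Among the beta subunits, Gabrb1 was at 43.5, 76.8 and 56.6 CPM, with ratios of 1.02 and 0.36. Gabrb2 was at 6.67, 10.1 and 16.9 CPM and had the second highest ratio of PDGFB-NLS, 1.33 (0.96 to 1.70). Its 1 region called in all 3 libraries had another order, at 1.47, 10.1 and 2.97 CPM. Both gamma subunits were lowest in Control, with Gabrg1 at 11.99, 25.3 and 21.9 CPM and ratios of 1.28 and 0.85, and Gabrg3 at 13.2, 22.7 and 20.1 CPM and ratios of 0.99 and 0.59. Gabrd, the delta subunit of tonic receptors, was at 22.0 CPM in Control and 22.7 in PDGFB-NLS, a ratio of 0.03, with no peak in PDGFB-WT. Against PDGFB-WT, Gabra2 and Gabrb1 were lower in PDGFB-NLS, at -0.65 and -0.66.

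Per length, short genes had the highest levels. In Control these were Grik5 at 298 CPM per 100 kb, Grin2d at 268, Grin2c at 139, Gabrd at 128 and Grin1 at 104. The values of Grik5, Grin2d, Grin2c and Grin1 include peaks that are also at ends of other genes. The lowest were Grin2a at 1.06 and Gria3 at 1.18 CPM per 100 kb. Most of the count of Grik3 and Gabrb1 lay inside the gene, with 4.6% and 13.9% at the gene ends in Control, whereas Gabrg1 had 90.6% there and Grik5 80.3%. The Grik5 share includes the region that is also at the end of another gene.

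Gene ends and peaks inside the genes were also summed apart. At gene ends, 8 of 10 members compared stood above the median in PDGFB-WT, with a median of 0.74, and 16 of 20 in PDGFB-NLS, with 0.53. Inside the genes it was 8 of 11, with 0.99, and 16 of 19, with 0.54. The members had 70 distinct regions called in all 3 libraries, 1 of which, shared by Gabra4 and Gabrb1, was listed for both. Of 23 listings at gene ends, 19 stood above the median of the regions compared in PDGFB-WT and 20 in PDGFB-NLS. Of 47 inside a gene, 44 and 37 did, and in PDGFB-NLS against PDGFB-WT 9 of the 47 did. That median came from regions with at least 100 counts in both libraries, 18425 for PDGFB-WT and 38260 for PDGFB-NLS against Control. The listings had no minimum. A weak region is listed only if the shallow PDGFB-WT library also called it, which can tilt the PDGFB-WT counts upward. No share over all regions under the same rule was computed. Inside Grik3 the region at chr4:125544755-125545776 went from 3.80 CPM in Control to 13.2 and 16.2, while the region at chr4:125702706-125703713 stayed at 35.0, 32.5 and 38.5.

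Nuclei were then clustered within each library and clusters were named "X-like" from marker lists, as described with the processing. The 16 named clusters were microglia- or macrophage-like, endothelial-like, mural- or fibroblast-like, astrocyte-like, oligodendrocyte-like, OPC-like and inhibitory neuron-like. The astrocyte-like name rests on the whole marker list. Among the top 10 genes by fold, 1 was an astrocyte marker in Control cluster 3 and 0 in PDGFB-WT clusters 3 and 5 and PDGFB-NLS cluster 1, while Sox1, from the neural progenitor list, was among them in Control cluster 3, PDGFB-WT cluster 3 and PDGFB-NLS cluster 1. These clusters were therefore set side by side by number, not as a cell class, and the largest of each library (Control 3, PDGFB-WT 3 and PDGFB-NLS 1) was used. The top 10 of the OPC-like clusters held 0, 2 and 1 OPC markers in Control, PDGFB-WT and PDGFB-NLS. Their median log2 folds of the OPC list were 1.32, 1.42 and 1.33. The next list, inhibitory neuron, was at 0.51, 1.02 and 0.82, so this name is not sharp either. The makeup differed between libraries. OPC-like nuclei held 2.47% of the counts in Control (57 barcodes), against 29.7% in PDGFB-WT and 14.7% in PDGFB-NLS. Astrocyte-like clusters held 18.4% in Control, 22.5% and 7.31% in the 2 clusters of PDGFB-WT, and 21.5% in PDGFB-NLS. Microglia-like nuclei held 36.2%, 31.1% and 32.6%, and endothelial-like nuclei 10.5% in Control and 7.72% in PDGFB-NLS, with no such cluster in PDGFB-WT. Oligodendrocyte-like nuclei held 25.2% in Control and 20.3% in PDGFB-NLS and had no named cluster in PDGFB-WT. The unnamed clusters held 1.94%, 1.08% and 1.33% of the counts in Control and 4.71% and 4.69% in PDGFB-WT, and PDGFB-NLS had none. Clusters were built on the same peaks, so levels by cluster are a description, and nothing used here separates tumour nuclei from other nuclei of a type.

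Among the named clusters, the receptor loci were low in microglia- and endothelial-like nuclei and high in OPC-like, astrocyte-like and neuron-like nuclei. The members summed to 509 CPM in microglia-like nuclei of Control and to 498 and 617 in those of PDGFB-WT and PDGFB-NLS. All sums here, and whole-locus levels by cluster below unless stated, run over each library's own peaks. A member without a peak, such as Grin2c in PDGFB-WT, enters the sum as 0. Sums of different libraries are thus not directly comparable. In OPC-like nuclei the sums were 2334, 1651 and 2462. In the largest astrocyte-like cluster they were 1738, 1557 and 1830, in oligodendrocyte-like nuclei 1479 in Control and 1916 in PDGFB-NLS, and in inhibitory neuron-like nuclei of PDGFB-NLS 2274. The unnamed clusters 5, 8 and 9 of Control summed to 2566, 387 and 1705, and 4 and 6 of PDGFB-WT to 1675 and 1541. Control cluster 5 and PDGFB-WT cluster 4 thus stood above the OPC-like nuclei of their library. Except in Control cluster 8, inhibitory neuron was the best list of these clusters, but they did not pass the naming rule. Much of the microglia-like sum came from Grik5 and Grin2d, without which it was 206, 220 and 303. OPC-like was the named cluster with the highest level for 12 of 25 members in Control, 12 of 23 in PDGFB-WT and 11 of 26 in PDGFB-NLS, where inhibitory neuron-like nuclei led for another 11. Most of these leads had an interval that overlapped that of the second cluster. OPC-like leads without overlap were Grik4, Grid1 and Gabra5 in Control, Gria4 and Grik4 in PDGFB-WT, and Gria2 and Grid1 in PDGFB-NLS. Inhibitory neuron-like leads without overlap were Grik1 and Gabra2.

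**Figure D3:**
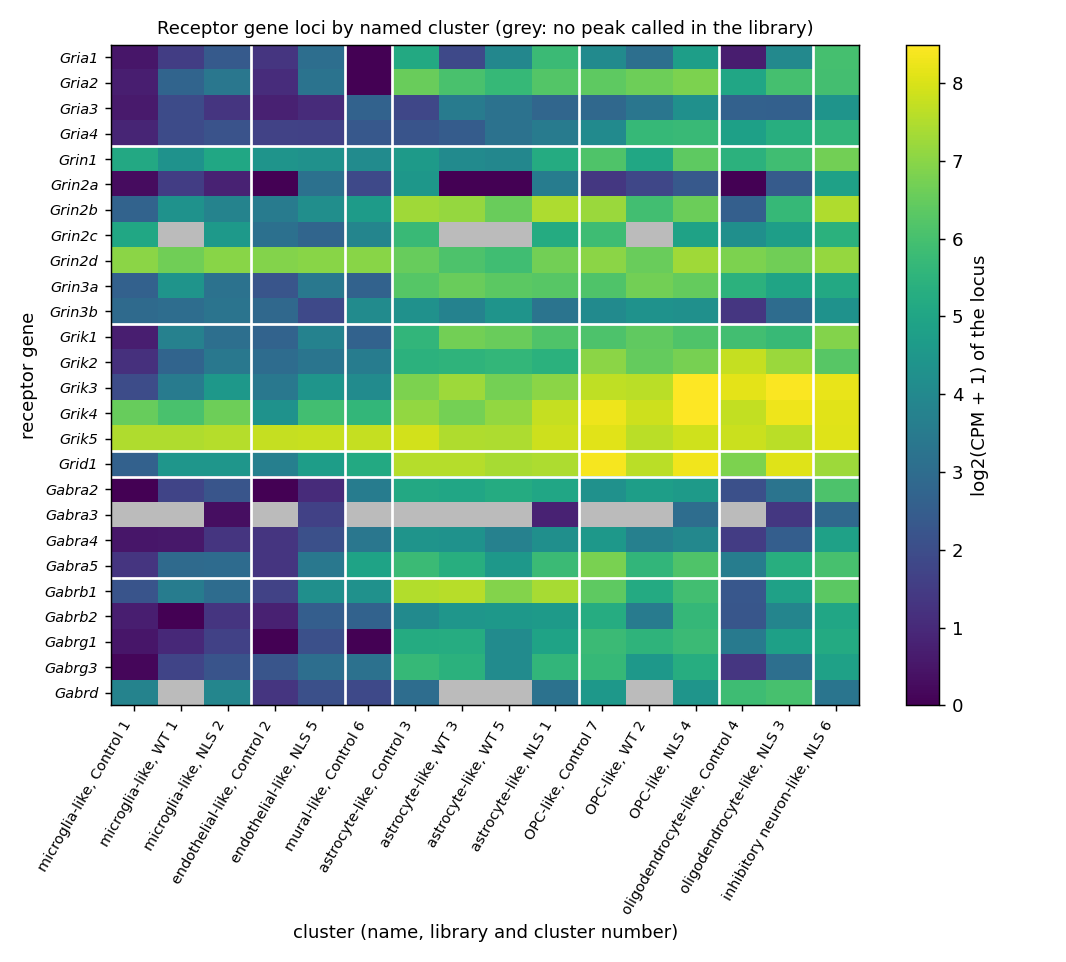
Level of each receptor locus in the named clusters, as log2(CPM + 1), with 1 column per cluster, grouped by cell type name, and grey where the library had no peak for that gene. Grik5 is high in every column, Gabrb1 is highest in the astrocyte-like columns, and most members are dark in the microglia-like and endothelial-like columns.

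Members differed in the clusters where they were open. Gabrb1 was highest in astrocyte-like nuclei, at 183 CPM in Control, 190 in PDGFB-WT cluster 3 and 166 in PDGFB-NLS, and at 83.1, 36.0 and 59.7 in OPC-like nuclei. Within it, the region at chr5:71732345-71733741 was at 55.4, 78.3 and 51.6 CPM in those astrocyte-like clusters and at 3.14, 0.999 and 3.89 in OPC-like nuclei. Grin3a had a region of the same kind, chr4:49666420-49667471, at 35.1, 35.5 and 26.5 CPM in astrocyte-like and 0, 2.997 and 0 in OPC-like nuclei. By the exact interval on fragments, the count of 0 allows up to 11.2 CPM in Control. For PDGFB-NLS only a floor of 3 counts is given, 0.833 CPM. It counts cut sites and not fragments, and is thus too low as a bound. Another Grin3a region, chr4:49845296-49846275 at the gene end, was open in both, at 19.7, 25.7 and 24.4 CPM in astrocyte-like and 42.4, 40.0 and 40.5 in OPC-like nuclei.

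The starts printed above also differed by cluster. That of Gria4 was at 12.5, 36.5 and 29.2 CPM in OPC-like nuclei and at 0.21, 4.61 and 3.40 in the largest astrocyte-like clusters. That of Gabrg1 was high in both, at 47.1, 45.0 and 54.7 in OPC-like and 33.8, 36.9 and 29.3 in astrocyte-like nuclei. The Gabra2 start was at 33.6, 31.6 and 25.7 CPM in astrocyte-like nuclei and at 40.4 in inhibitory neuron-like nuclei. The Grin1 start was at 32.9, 19.98 and 45.8 CPM in OPC-like nuclei, 53.0 in inhibitory neuron-like nuclei and 6.98, 9.21 and 13.6 in astrocyte-like nuclei.

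Grid1 was at 331, 194 and 317 CPM in OPC-like nuclei, against 5.3, 21.0 and 21.0 in microglia-like nuclei. Grik3 reached 285 CPM in oligodendrocyte-like nuclei of Control and 350 in those of PDGFB-NLS. Gabrd, too, was highest there, at 56.5 and 63.4 CPM. Grin2b was at 156, 141 and 174 CPM in astrocyte-like nuclei and 179 in inhibitory neuron-like nuclei, and at 4.9 in oligodendrocyte-like nuclei of Control and 50.2 in those of PDGFB-NLS. Grik5 lay between 174 and 276 CPM in every named cluster, and its region at the end of another gene between 121 and 205.

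Like-named clusters were compared over regions called in all 3 libraries, for members with at least 20 counts. In OPC-like nuclei members fell on both sides of the median. In PDGFB-WT against Control, 5 of 15 members stood above the median of all genes and 10 below, with a median of -0.26. In PDGFB-NLS against Control it was also 5 above and 10 below, with -0.20. With all peaks the medians were -0.40 over 16 members and -0.08 over 17. The OPC-like cluster of Control has 57 barcodes, so intervals are wide, and a member reaches 20 counts there only when its level is high, which tilts these counts toward values below the median. With no minimum, 8 of 20 members stood above it in each PDGFB library, with medians of -0.14 and -0.18. Gria4, with 10 counts in Control, was the member farthest above, at 15.7, 50.5 and 42.2 CPM and ratios of 1.71 (0.49 to 3.21) and 1.42 (0.24 to 2.91). Grin2b was at 127 CPM in Control, against 60 in PDGFB-WT and 59 in PDGFB-NLS, with ratios of -1.06 (-1.65 to -0.46) and -1.11 (-1.64 to -0.56). Gabra5 was at 91, 43 and 59 CPM, with -1.04 and -0.64, and Grid1 at 274, 177 and 192, with -0.61 and -0.52. These 3 genes were thus highest in Control here, while in the whole libraries they were lowest in Control. Grik3 was the other way, at 124, 165 and 179 CPM, with 0.44 and 0.52.

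In Control cluster 3, PDGFB-WT cluster 3 and PDGFB-NLS cluster 1, the largest astrocyte-like clusters, members fell on both sides of the median. In PDGFB-WT against Control 10 of 18 stood above it, with a median of 0.11, and in PDGFB-NLS 7 of 19, with -0.08. Grik1 was at 45 CPM in Control, against 97 in PDGFB-WT and 65 in PDGFB-NLS, with ratios of 1.14 (0.70 to 1.58) and 0.50. Its direction was that of the whole libraries. Grik3 was at 97, 149 and 105 CPM, with 0.64 and 0.07. Gria2 went the other way from the whole libraries, at 92, 65 and 67 CPM, with -0.46 and -0.49. In oligodendrocyte-like nuclei of PDGFB-NLS against Control, 10 of 14 members stood above the median, with 0.26, and with no minimum 15 of 19, with 0.78, among them Gabra5 at 11 and 36 CPM (1.72), Gabrg1 at 10 and 27 CPM (1.51) and Grid1 at 85 and 156 CPM (0.88). In microglia-like nuclei, in the same regions, some loci that are otherwise OPC- or astrocyte-like were not at 0 in the PDGFB libraries, for example Grid1 at 4, 20 and 15 CPM and Grin2b at 4, 19 and 8 CPM in Control, PDGFB-WT and PDGFB-NLS. No doublet caller was run, and the source of these counts was not tested.

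**Figure D4:**
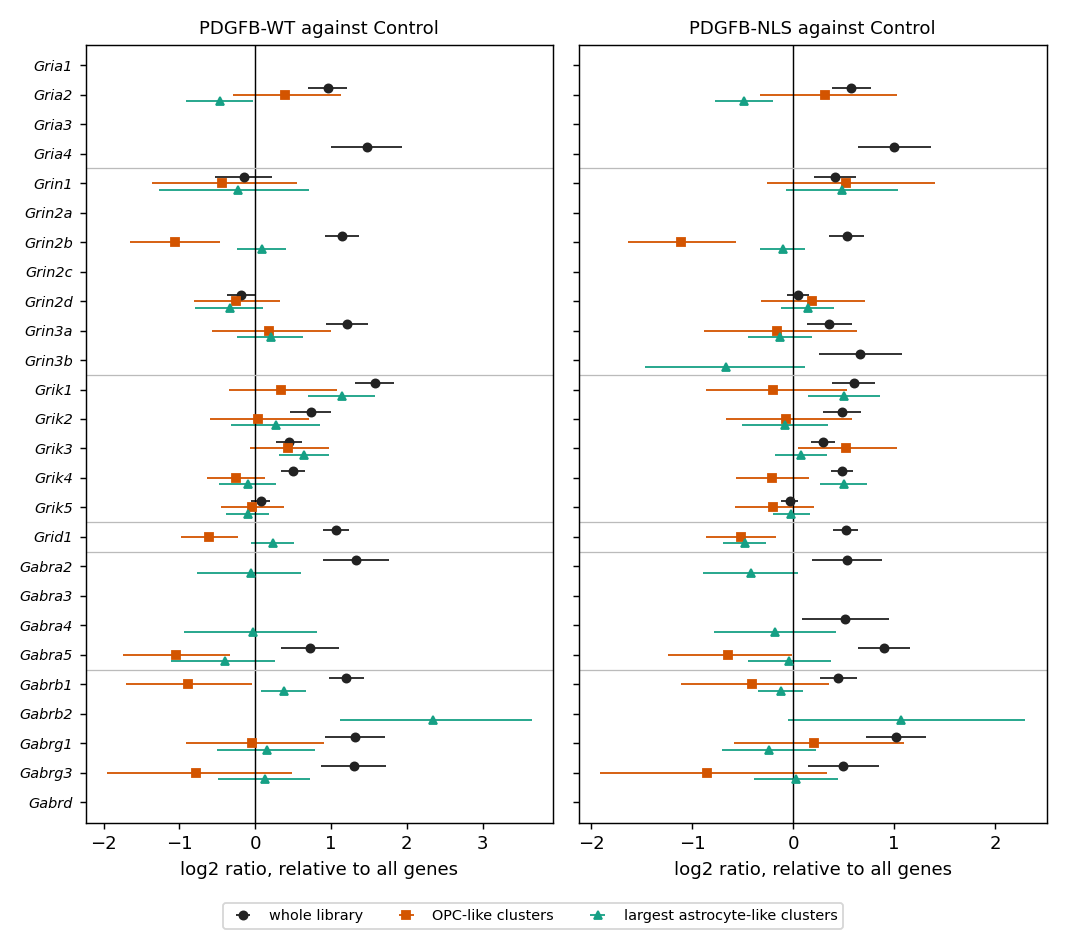
Log2 ratio against Control, relative to all genes and in regions called in all 3 libraries, for the whole library (black circles, at least 100 counts), the OPC-like clusters (orange squares) and the largest astrocyte-like clusters (green triangles, both at least 20 counts). Bars are 95% intervals for counting error. Grin2b in OPC-like nuclei lies at -1.06 and -1.11, left of its whole-library values of 1.15 and 0.53.

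Marker sums of the cell types differed between the whole libraries too, over each library's own peaks. A marker without a peak has an unknown count there and enters the sum as 0. PDGFB-WT had the fewest peaks, so its sums may be too low. The OPC markers summed to 1024 CPM in Control, against 1559 in PDGFB-WT and 1528 in PDGFB-NLS, and every marker had a peak in each library. In PDGFB-WT 9 of 17 OPC markers compared were higher, with a median of 0.78, and in PDGFB-NLS 7 of 17, with 0.32. Over all genes compared, 7.92% were higher in PDGFB-WT and 7.96% in PDGFB-NLS. Counts of higher markers are given for the OPC and neuron lists only. Astrocyte markers summed to 897, 1063 and 1099 CPM, and Gja1 had no peak in PDGFB-WT. Oligodendrocyte markers summed to 1198, 568 and 1040 CPM, with 3 of 18 without a peak in PDGFB-WT. Endothelial markers summed to 700, 268 and 555, with 7 of 18 without a peak in PDGFB-WT, Cldn5 among them. Excitatory neuron markers summed to 496, 375 and 635, and 0 of 9 compared were higher in PDGFB-WT and 5 of 14 in PDGFB-NLS. Inhibitory neuron markers summed to 200, 189 and 295, with 1 of 16 without a peak in Control and PDGFB-NLS and 6 of 16, Gad2 among them, in PDGFB-WT. Of these markers, 3 of 5 compared were higher in PDGFB-WT and 7 of 12 in PDGFB-NLS. Microglia markers summed to 1202, 857 and 1065, with no peak for Aif1 and Trem2 in PDGFB-WT. The part of these lists in the receptor values was not tested.

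Genes that work with these receptors were taken from 4 lists, whose counts of higher members stand beside 7.92% of all genes in PDGFB-WT and 7.96% in PDGFB-NLS. Among 24 auxiliary and scaffold genes of glutamate receptors, 7 of 22 compared were higher in PDGFB-WT and 1 was lower, with a median of 0.19, and 8 of 23 were higher in PDGFB-NLS, with 0.18. Over each library's own peaks the highest was Shisa6, an AMPA receptor auxiliary protein, at 4.46 CPM in Control, against 21.0 in PDGFB-WT and 34.3 in PDGFB-NLS, with ratios of 2.44 and 2.93. Cnih3, which aids AMPA receptor export, was lowest, at -0.66 and -0.36. In regions called in all 3 libraries other genes took these places, with Gsg1l highest at 1.65 and Dlg1 lowest at -0.15 in PDGFB-WT, and Grip2 at 1.14 and Dlg3 at -0.18 in PDGFB-NLS. Among 9 GABA-A scaffold genes, 2 of 9 were higher in PDGFB-WT, with a median of 0.28, and 1 of 9 in PDGFB-NLS, with 0.30. Gphn, the gephyrin scaffold gene, was lowest of them over own peaks, at -0.41 and -0.14.

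Of 15 genes that make, load or clear glutamate and GABA, 4 of 11 compared were higher and 1 lower in PDGFB-WT, with a median of 0.38, led by Slc6a11, a GABA transporter of astrocytes, at 1.27. In PDGFB-NLS 3 of 13 were higher, with a median of 0.29, led by the neuronal glutamate transporter gene Slc1a1 at 1.04. Of 9 metabotropic glutamate and GABA-B receptor genes, 2 of 7 were higher in PDGFB-WT, with 0.54, led by Grm5 at 1.54, and 3 of 8 in PDGFB-NLS, with 0.34, led by Grm4 at 0.89. In regions called in all 3 libraries Gad1 led the transmitter genes of PDGFB-WT at 1.68 and Grm5 the metabotropic genes of PDGFB-NLS at 0.67.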

How the data were processed

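Single-cell ATAC-seq of 3 mouse libraries, 1 per group, was used. The deposited values were raw counts of cut sites per peak and barcode, made with cellranger-atac 2.1.0 per the file headers, and Cell Ranger 8 and mm10 are listed in the submitters' processing notes. Peaks were called in each library. How the caller was set, and how cells were called, is not stated in any source used here. Groups were taken from sample titles, and the receptor genes and all lists were chosen with earlier results of these data known.

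Only peaks on the numbered and sex chromosomes and barcodes reaching 200 counts were used, which left 31588784 counts in Control, against 7008951 in PDGFB-WT and 31177621 in PDGFB-NLS. Overlapping peaks made up 147229 merged regions, and the 47450 that every library had called set the CPM scale. Their share of the counts was 81.6% (Control), 96.3% (PDGFB-WT) and 78.8% (PDGFB-NLS). Genes were placed by RefSeq coordinates on GRCm38.p6, without strand, so both ends of a gene (within 1000 bp) counted as gene ends. Fragments were taken as the count plus 1, divided by 2 and rounded down, since the ends of a fragment are counted apart. Intervals of ratios are 95% Clopper-Pearson intervals on fragments, centred on the count ratio. For a count of 0, the bound in Control is from an exact Poisson interval on fragments, and the floor in PDGFB-NLS is 3 counts. All of these cover counting error only. Ratios were checked on simulated counts.

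Each library was clustered alone (tf-idf, components 2 to 30 of a singular value decomposition, 15 neighbours, Leiden resolution 0.6). A cluster was named when the median log2 fold of a marker list was at least 0.5, at least 3 of its markers were detected and at least 1 was among the top 50 genes by fold. A cluster far shallower than its library with none in its top 10 stayed unnamed. This rule was set after the data were seen. No doublet caller was run. All 26 members were named, and of each list of related genes those with the highest or lowest ratio. Of 20 other ways of computing the values, 6 were chosen after seeing the data, as was a count within clusters with no minimum. Python 3.11.15 was used with numpy 2.4.6, scipy 1.17.1, pandas 2.3.3, scikit-learn 1.9.0, leidenalg 0.10.2, igraph 0.11.9 and matplotlib 3.10.9.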

Additional observations from a re-analysis of the deposited data

Results flagged for a closer look

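Grin1 lay on opposite sides of the median of all genes in the 2 PDGFB libraries. Its log2 ratio to Control was -0.42 in PDGFB-WT and 0.49 in PDGFB-NLS. With 1 library per group the difference was not tested, and over regions called in all 3 libraries the interval of the PDGFB-WT value held 0. Part of the Grin1 count lies in chr2:25291811-25293432, which is also at the end of another gene. The region over the listed Grin1 start stood at 0.39 (-0.17 to 0.93) in PDGFB-WT and 1.22 in PDGFB-NLS, relative to the regions compared.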

How the results depend on the processing

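The median log2 ratio of the receptor genes in PDGFB-WT against Control was 0.99. It was 0.74 with gene ends only, 0.72 with gene ends in regions called in all 3 libraries, 0.72 with barcodes weighted alike, 0.63 without microglia-like and endothelial-like barcodes (PDGFB-WT had no endothelial-like cluster) and 0.40 with the minimum set on the Control level alone, and it lay between 0.76 and 1.11 under the other settings. In PDGFB-NLS against Control it stayed between 0.37 and 0.59 under the 20 alternatives. In PDGFB-NLS against PDGFB-WT it was -0.10, and -0.36 in regions called in all 3 libraries, -0.47 in inner peaks of those regions and -0.43 in those regions without peaks at ends of other genes. Its sign turned when no median was taken off (0.13) and without microglia-like and endothelial-like barcodes (0.06). Grid1 in PDGFB-NLS against Control reversed with gene ends only (-0.37) and with gene ends in regions called in all 3 libraries (-0.36), since its end and inner peaks differ. Of 1032 values of single receptor genes under the alternatives, 843 stayed within the counting interval of the reported value, 187 moved beyond it and 2 of values past 1.5-fold reversed. In all, 71 had the other sign, Grik2 in regions called in all 3 libraries among them. Without the minimum of 20 counts, chosen after seeing the data, the medians within microglia-like nuclei went from 0.17 to 1.91 in PDGFB-WT and from 0.11 to 1.76 in PDGFB-NLS. PDGFB-WT, the shallowest library, limits what can be compared. No paired analysis was possible because each group has 1 library.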
